A study of Homo sapiens with 28 samples.

Results

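The NDRG genes, named after N-myc downstream regulated gene 1, form a family of 4 paralogs, NDRG1, NDRG2, NDRG3 and NDRG4. They were followed here by their gene symbols, and all 4 were found among the 19662 symbols of the RNA sequencing tables. The series asks how ONECUT2, a CUT homeodomain transcription factor, and low oxygen act on prostate cancer cells, and the family was read in its 16 RNA libraries, with 2 libraries in each of 8 groups. PC3, a prostate cancer cell line, was transfected with a control siRNA (siCtrl) or with siRNAs against ONECUT2 (siOC2). LNCaP, an androgen-sensitive prostate cancer cell line, carried an empty vector (EV) or overexpressed Flag-tagged ONECUT2 (OC2). Each of these 4 arms was kept in normoxia or in a chamber at 0.2% O2. The libraries of siOC2 are not repeats of 1 treatment, because replicate 1 received siRNA1 and replicate 2 received siRNA2. Each model is a single established line, and the labels do not say that the libraries came from separate cultures, so every p-value measures the spread between these libraries, which may be technical. Levels are RPKM, reads per kilobase of transcript scaled to the number of mapped reads, which can be compared between genes.

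NDRG proteins share an alpha/beta hydrolase fold without a known hydrolase activity. NDRG1 is known as a gene that MYCN and MYC repress and that hypoxia, androgen and cell stress induce, and its product is phosphorylated by the kinases SGK1 and GSK3-beta. NDRG2 is best known from brain and muscle, where it is often low in tumours, and NDRG4 from heart and brain. NDRG3 is known to be controlled at the protein level by oxygen-dependent prolyl hydroxylation, which RNA libraries do not measure. In bulk libraries such as these, a change in the number of expressing cells and a change in RNA per cell cannot be told apart.

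Promoter sequence from RefSeq (GRCh38.p14, 250 bases before to 50 after a transcript start) was matched for NDRG2, with 5 starts, and NDRG4, with 4 starts. NDRG1 and NDRG3 were not matched. One window of each is shown, for NDRG4, which fell across strata in hypoxia, and for NDRG2, which had no common direction there. Capitals mark the core of the hypoxia response element, ACGTG or GCGTG, searched on both strands.
NDRG2 promoter, chr14:21025056-21025355, minus strand: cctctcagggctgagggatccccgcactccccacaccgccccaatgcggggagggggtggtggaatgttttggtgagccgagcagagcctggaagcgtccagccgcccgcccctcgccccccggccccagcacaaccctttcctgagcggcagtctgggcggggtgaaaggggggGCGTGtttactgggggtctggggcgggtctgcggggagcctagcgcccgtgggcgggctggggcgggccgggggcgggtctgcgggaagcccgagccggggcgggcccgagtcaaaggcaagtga
NDRG4 promoter, chr16:58463465-58463764, plus strand: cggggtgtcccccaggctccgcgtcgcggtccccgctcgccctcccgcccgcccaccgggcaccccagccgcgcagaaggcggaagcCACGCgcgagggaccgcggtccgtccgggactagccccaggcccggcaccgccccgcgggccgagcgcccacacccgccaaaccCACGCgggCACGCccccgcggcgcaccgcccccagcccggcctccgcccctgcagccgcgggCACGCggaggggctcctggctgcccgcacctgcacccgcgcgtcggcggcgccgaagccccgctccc
The NDRG2 window holds 1 match and the NDRG4 window 4, each of them read on the opposite strand as CACGC. Of all starts, 3 of 5 for NDRG2 and 1 of 4 for NDRG4 had a match, beside 48.4% of 35116 RefSeq promoter windows of this length. The NDRG2 windows chr14:21025012-21025311 and chr14:21025056-21025355 overlap and hold the same match. For NDRG4 the window shown is the one with matches. The ONECUT core, ATTGAT or ATCGAT on either strand, was found at 1 of 5 starts of NDRG2 and at none of the 4 of NDRG4, beside 6.96% of all windows. A match of this kind is a description of the letters, not a binding site.

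The genes lie on different chromosomes (GENCODE annotation on GRCh37, the build of the deposited tables). NDRG1 spans chr8:134249418-134314265 on the minus strand, NDRG2 spans chr14:21484922-21539031 on the minus strand, NDRG3 spans chr20:35280169-35374493 on the minus strand and NDRG4 spans chr16:58496750-58547532 on the plus strand. The span of NDRG2 overlaps 5 protein-coding genes that also have values in the tables, TPPP2, RNASE7, RNASE8 and ARHGEF40 on the opposite strand and RNASE13 on the same strand. Its counts are therefore less certain than those of the others, since the sources used here do not state whether counting used strand.

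The line markers reported here separated the lines, except VIM. KLK3, which encodes prostate-specific antigen, was at 1842 to 3997 RPKM in the LNCaP libraries and listed at 0 in all 8 PC3 libraries, and CD44 was at 171 to 661 RPKM in PC3 against at most 0.748 RPKM in LNCaP. VIM, also chosen as a PC3 marker, overlapped between the lines, at 30.2 to 353 RPKM in PC3 and 23.6 to 58.2 RPKM in LNCaP. The leukocyte gene PTPRC did not exceed 0.0635 RPKM in any library. ONECUT2 was low in PC3, at 1.77 and 1.16 RPKM with siCtrl in normoxia against 0.276 RPKM with siRNA1 and 0.204 RPKM with siRNA2, and at 0.648 and 0.550 RPKM with siCtrl in hypoxia against 0.125 and 0.214 RPKM. In LNCaP it was at 2.89 and 7.86 RPKM (EV, normoxia) and at 11.5 and 3.09 RPKM (EV, hypoxia), and no value is given for the OC2 libraries, so overexpression could not be checked from it. The steps between low RPKM values gave relative depths: in PC3, siOC2 hypoxia replicate 1, siCtrl hypoxia replicate 2 and siCtrl normoxia replicate 1 had 0.303, 0.333 and 0.364 of the reads of the deepest library, and the other libraries of both lines 0.549 or more.

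NDRG1 rose strongly in hypoxia in every arm of both lines. In PC3 with siCtrl it was at 176 and 192 RPKM in normoxia and at 3713 and 3359.5 RPKM in hypoxia. With siOC2 it was at 425 RPKM (siRNA1) and 70.9 RPKM (siRNA2) in normoxia and at 2454 and 1760.4 RPKM in hypoxia. In none of these arms did normoxic and hypoxic libraries overlap, and the 2 siCtrl libraries of each oxygen level lay close together while the normoxic siOC2 libraries did not. Wherever overlap of 2 libraries with 2 is mentioned here, it is a description. Such a separation cannot give a p under 0.333 (exact permutation test, 2-sided), and the share of all genes without overlap was not counted. The increase with siCtrl was 19.2-fold (log2 fold change 4.26, SE 0.671, 95% interval 2.72 to 5.80, limma adjusted p = 0.0572), the 11th highest of 12214 genes tested. With siOC2 it was 12.0-fold (log2 fold change 3.58, SE 0.671, limma adjusted p = 0.374). Within siOC2 the increase was 5.78-fold for siRNA1 and 24.8-fold for siRNA2. Both values passed the limits that the study set for PC3, more than a 2-fold change with P under 0.05 before adjustment; these limits are meant wherever a gene is called here, and 2.23% of all genes were called higher with siCtrl and 1.11% with siOC2. Neither passed an adjusted p of 0.05, as 0.27% and 0.00819% of genes did. The spread in this fit came mostly from the pair of normoxic siOC2 libraries. A term for the siRNA, chosen after the data were seen, gave limma adjusted p values of 1.78e-06 (siCtrl) and 4.45e-05 (siOC2). That term takes the siRNA difference as equal at both oxygen levels. For NDRG1 it was not, with siRNA1 over siRNA2 at 5.99-fold in normoxia and 1.39-fold in hypoxia, so these values are not given as a pass.

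In LNCaP NDRG1 rose in both arms as well. With EV, NDRG1 was at 131 and 136 RPKM in normoxia and at 1089 and 997 RPKM in hypoxia. With OC2 it was at 111 and 139 RPKM in normoxia and at 633 and 716 RPKM in hypoxia. Again no normoxic library reached a hypoxic one, and the hypoxic OC2 libraries both lay below the hypoxic EV libraries. The change was 7.82-fold with EV (log2 fold change 2.97, SE 0.125, limma adjusted p = 8.0e-06) and 5.42-fold with OC2 (2.44, SE 0.125, limma adjusted p = 2.14e-05), and it was called in both arms, beside 5.6% of all genes called higher with EV and 5.48% with OC2. It ranked 78th and 79th of 12283 genes by increase.

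**Figure D1:**
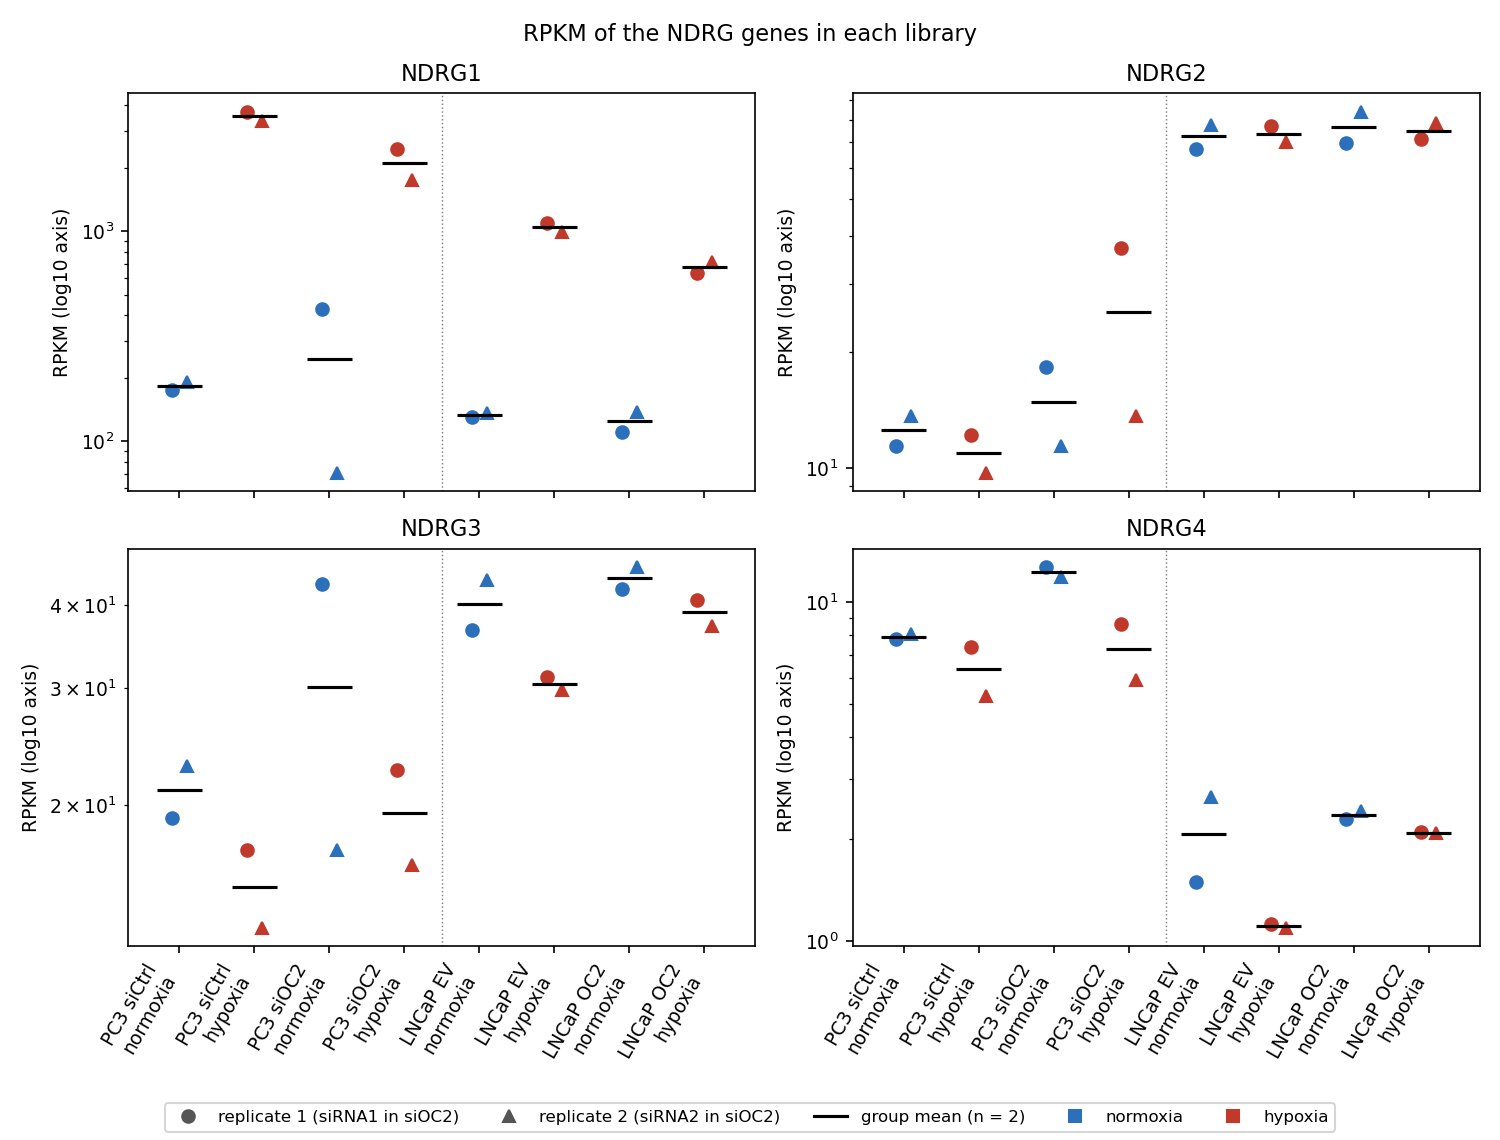
RPKM of NDRG1 to NDRG4 on log10 axes in the 16 libraries, by cell line, arm and oxygen (blue normoxia, red hypoxia); circles and triangles are replicates 1 and 2 and bars the means of 2 libraries. NDRG1 lies between 70.9 and 425 RPKM in PC3 normoxia and between 1760.4 and 3713 RPKM in PC3 hypoxia, NDRG2 and NDRG4 do not overlap between the lines, and NDRG3 does.

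Over all 16 libraries, with hypoxia labels permuted within the 4 strata of line and arm, NDRG1 was higher in hypoxia by 3.31 on the log2 scale, in 4 of 4 strata (exact permutation test, 2-sided, p = 0.00154, the smallest that the 1296 arrangements allow). NDRG1 rose against each paralog too, with the log2 ratio of NDRG1 to NDRG2 higher in hypoxia by 3.20, that to NDRG3 by 3.70 and that to NDRG4 by 3.83 (each exact permutation p = 0.00154). These are among 14 such tests, and within 1 line alone no arrangement can give a p under 0.0556.

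NDRG1 made up most of the family's RNA in hypoxia. Its share of the summed RPKM of the 4 genes was 63.7 to 85.1% in normoxic PC3 and 97.3 to 99.2% in hypoxic PC3. In LNCaP the share was 49.2 to 55.3% in normoxia and 84.7 to 90.9% in hypoxia. In hypoxic PC3 libraries NDRG1 ranked 12th to 29th among all symbols by RPKM, and in hypoxic LNCaP libraries 101st to 171st, from 134th to 983rd and 885th to 1134th in normoxia.

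**Figure D2:**
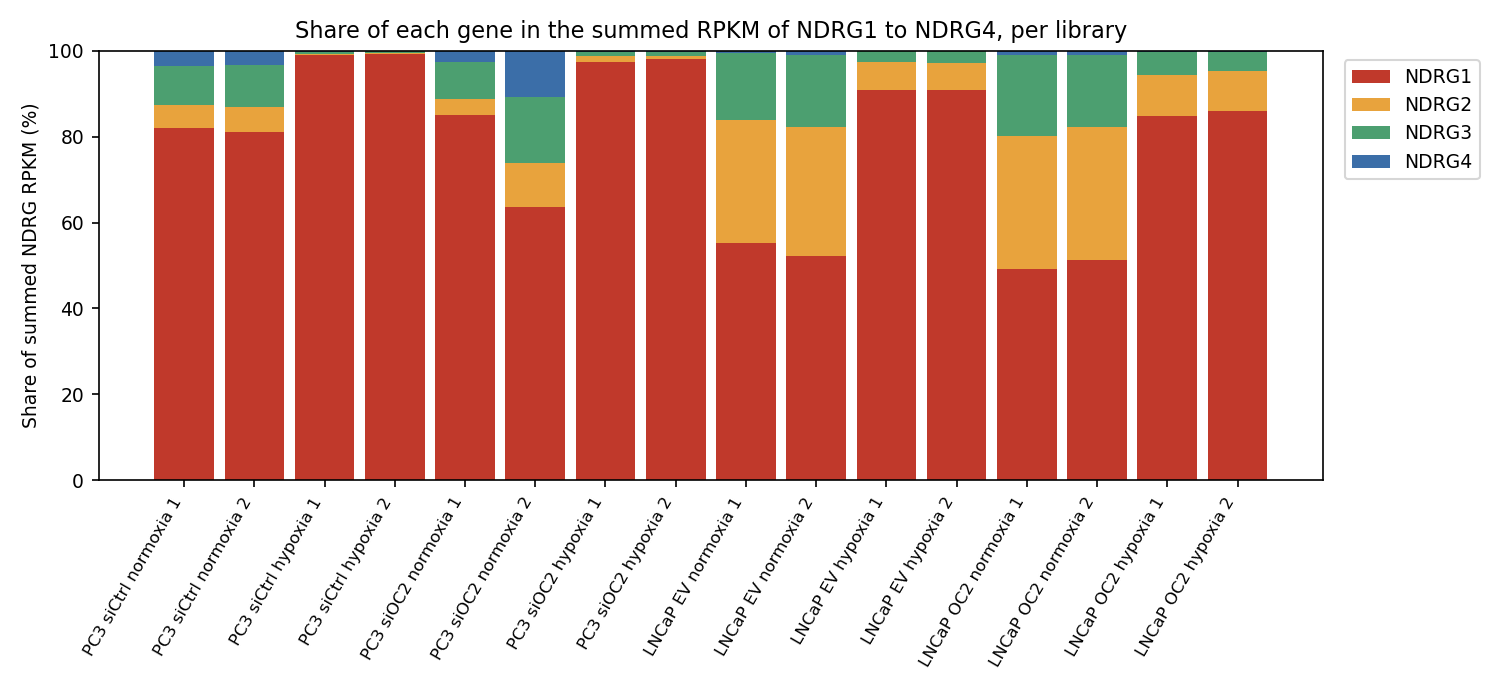
Share of each gene in the summed RPKM of NDRG1 to NDRG4 (%), 1 bar per library. The NDRG1 share is above 84% in each hypoxic library; in normoxic LNCaP NDRG2 takes 28.5 to 31.1% and NDRG3 15.5 to 18.8%.

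NDRG2 did not follow NDRG1. In LNCaP it was at 67.3 and 77.9 RPKM with EV and at 69.6 and 84.2 RPKM with OC2 in normoxia, and at 77.2 and 70.3 RPKM with EV and at 71.3 and 78.5 RPKM with OC2 in hypoxia. All groups overlapped. The log2 fold change in hypoxia was 0.02 with EV (95% interval -0.27 to 0.32, limma adjusted p = 0.900), which is the median of all 12283 genes tested, and -0.03 with OC2 (-0.32 to 0.26, limma adjusted p = 0.866). In PC3, where it was lower, NDRG2 was at 11.4 and 13.6 RPKM (siCtrl, normoxia) and at 12.2 and 9.71 RPKM (siCtrl, hypoxia). With siOC2 it was at 18.2 and 11.4 RPKM in normoxia and at 37.2 and 13.6 RPKM in hypoxia, so the 1 library that stood out was siRNA1 in hypoxia, a shallow one. Neither change in PC3 hypoxia passed the limits (siCtrl log2 fold change -0.20, 95% interval -1.27 to 0.88; siOC2 0.64, -0.44 to 1.72; limma adjusted p = 0.985 and 0.763). The stratified difference was 0.11 (exact permutation p = 0.728), with 2 of 4 strata in each direction.

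NDRG4, the least abundant member in most libraries, was lower in hypoxia in every arm. In PC3 it was at 7.81 and 8.04 RPKM (siCtrl) and at 12.7 and 11.8 RPKM (siOC2) in normoxia, against 7.40 and 5.27 RPKM (siCtrl) and 8.62 and 5.90 RPKM (siOC2) in hypoxia. In LNCaP it was at 1.49 and 2.66 RPKM (EV) and at 2.29 and 2.43 RPKM (OC2) in normoxia, against 1.12 and 1.09 RPKM (EV) and 2.1 and 2.08 RPKM (OC2) in hypoxia. In none of the 4 arms did a hypoxic library reach a normoxic one, which in a single arm is weak, since no exact permutation p can go under 0.333 there. Across strata NDRG4 fell by 0.52 on the log2 scale (exact permutation test, 2-sided, p = 0.00154, 1 of 14 such tests and not adjusted for their number). In single arms the change was largest with EV (log2 fold change -0.80, SE 0.259, limma adjusted p = 0.0459) and with siOC2 (-0.77, SE 0.309, limma adjusted p = 0.719), both under 2-fold, so neither was called, though each had P under 0.05 before adjustment. By fold and P together 2.34% of genes were called lower with EV and 2.35% with siOC2, and by adjusted p 14.1% were lower with EV. The EV value rests on its normoxic pair, at -1.20 without replicate 1, which then passed the limits, and -0.40 without replicate 2. Its limma adjusted p ran from 0.00635 to 0.207 with 1 library left out, and it stayed under 0.05 only without EV normoxia replicate 1. With siCtrl the NDRG4 change was -0.34 (95% interval -1.05 to 0.37) and with OC2 -0.17 (-0.76 to 0.43). The median over all genes was -0.07 with siCtrl, -0.22 with siOC2, 0.02 with EV and 0.09 with OC2.

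NDRG3 showed a similar but smaller difference. In LNCaP it was at 36.7 and 43.6 RPKM (EV) and at 42.3 and 45.7 RPKM (OC2) in normoxia, and at 31.2 and 29.8 RPKM (EV) and 40.8 and 37.3 RPKM (OC2) in hypoxia, without overlap in either arm. In PC3 it was at 19.1 and 22.9 RPKM (siCtrl) in normoxia and at 17.1 and 13.0 RPKM in hypoxia. With siOC2 it was at 43.1 RPKM (siRNA1) and 17.1 RPKM (siRNA2) in normoxia and at 22.6 and 16.2 RPKM in hypoxia, where the groups overlap. Across strata NDRG3 fell by 0.39 on the log2 scale, in 4 of 4 strata (exact permutation test, 2-sided, p = 0.0247). This p is 1 of 14 such tests and is not adjusted for their number. Only the EV arm had an adjusted p under 0.05 (log2 fold change -0.39, SE 0.115, limma adjusted p = 0.0319), and it was under 2-fold, where 14.1% of genes were lower by adjusted p. Without EV normoxia replicate 2 or either hypoxic EV library the EV value no longer had an adjusted p under 0.05, with a limma adjusted p of up to 0.161. The log2 fold changes with siCtrl, siOC2 and OC2 were -0.49, -0.50 and -0.17. NDRG3 and NDRG4 varied together over the 16 libraries once each line was centred on its mean (r = 0.74, with 0.73 in PC3 and 0.96 in LNCaP), given as a description, since the libraries share their groups.

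**Figure D3:**
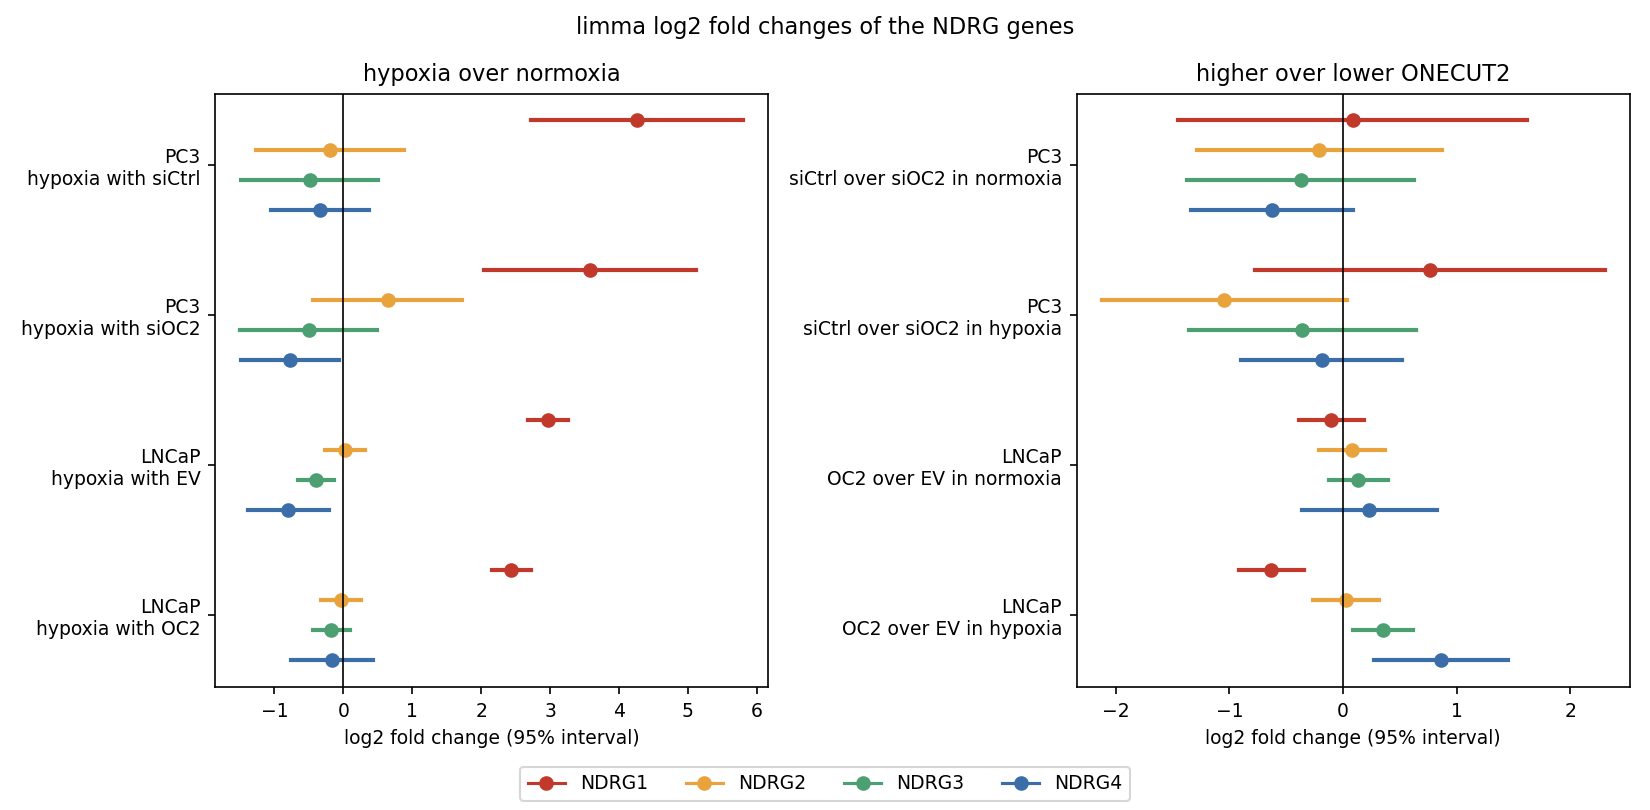
limma log2 fold changes with 95% intervals of the 4 genes, for hypoxia over normoxia (left) and for the arm with more ONECUT2 over the arm with less (right), each in 4 settings. On the left NDRG1 lies between 2.44 and 4.26 and NDRG4 between -0.80 and -0.17; on the right NDRG1 is at -0.63 in hypoxic LNCaP and at 0.76 in hypoxic PC3.

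The paralogs differed in which line held more of them. NDRG2 was at 9.71 to 37.2 RPKM over the PC3 libraries and at 67.3 to 84.2 RPKM over the LNCaP libraries, without overlap, whereas NDRG4 was at 5.27 to 12.7 RPKM in PC3 and at 1.09 to 2.66 RPKM in LNCaP. NDRG3 overlapped, at 13.0 to 43.1 and at 29.8 to 45.7 RPKM. The tables of the lines were made separately, so these levels are set side by side and were not tested. Among the 4 genes in LNCaP normoxia the order was NDRG1, NDRG2, NDRG3 and NDRG4 in every library. In normoxic PC3 it was NDRG1, NDRG3, NDRG2 and NDRG4, except with siRNA2, where NDRG4 (11.8 RPKM) lay just above NDRG2 (11.4 RPKM).

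Silencing of ONECUT2 in PC3 left NDRG1 at different levels with each siRNA in normoxia. The siRNA1 library was above both siCtrl libraries and the siRNA2 library below both, 5.99-fold apart, whereas the siCtrl libraries differed by 1.09-fold. The mean log2 difference, siCtrl over siOC2, was 0.08 (SE 0.671, 95% interval -1.45 to 1.62, limma adjusted p = 0.985). Taken singly, the siCtrl mean was 1.21 lower than siRNA1 and 1.38 higher than siRNA2 on the log2 scale, so no direction can be given. By the median, the normoxic siRNA1 library also held more RNA of 16 reference hypoxia genes than siCtrl. The median log2 difference was 0.69, against 0.13 over all 12214 genes, with single genes from -0.68 to 2.34. With siRNA2 in normoxia it was -0.11, against 0.14. In hypoxia it was -0.48 with siRNA1, against -0.28, and -0.54 with siRNA2, against 0.23. The part of this in the NDRG1 value was not tested.

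In hypoxic PC3 both siCtrl libraries were above both siOC2 libraries for NDRG1, by 1.70-fold, but the difference did not pass the limits (log2 fold change 0.76, SE 0.671, 95% interval -0.77 to 2.30, limma adjusted p = 0.705). With a term for the siRNA, chosen after the data were seen and equal at both oxygen levels, the same value had a limma adjusted p = 0.168. None of the 4 genes was called in either siCtrl over siOC2 comparison, beside 1.59% of genes called higher and 3.62% lower in normoxia and 3.95% and 3.55% in hypoxia, and none had a limma P under 0.05 before adjustment. NDRG2 came closest, with siOC2 above siCtrl in hypoxia (log2 fold change siCtrl over siOC2 -1.04, 95% interval -2.12 to 0.03, limma adjusted p = 0.426). That value rests on siRNA1: against siRNA1 alone the difference was -1.77 and against siRNA2 alone -0.32. The same siRNA term gave a limma adjusted p = 0.0219. For NDRG2 too the siRNA difference was unequal, with siRNA1 over siRNA2 at 1.60-fold in normoxia and 2.73-fold in hypoxia, so this is not given as a pass. NDRG4 was higher with both siRNAs in normoxia without overlap (log2 fold change -0.62, SE 0.309, limma adjusted p = 0.607), with -0.68 against siRNA1 and -0.57 against siRNA2. For NDRG3 the log2 fold changes were -0.37 in normoxia and -0.36 in hypoxia, with overlapping groups.

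Overexpression of ONECUT2 in LNCaP went with less NDRG1 in hypoxia. There the OC2 libraries (633 and 716 RPKM) were below the EV libraries (1089 and 997 RPKM) by 1.55-fold (log2 fold change -0.63, SE 0.125, 95% interval -0.92 to -0.34, limma adjusted p = 0.0176). This is under 2-fold and so not called by the limits used for PC3, and by adjusted p alone 4.82% of genes were lower and 6.72% higher. With 1 library left out the limma adjusted p ran from 0.0116 to 0.148, and it was above 0.05 without either hypoxic EV library or hypoxic OC2 replicate 1. In normoxia the groups overlapped (log2 fold change -0.10, SE 0.125, limma adjusted p = 0.654). The difference between both oxygen levels was -0.53 (SE 0.177, limma adjusted p = 0.207), with P under 0.05 before adjustment, as for 16.9% of all genes.

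NDRG3 and NDRG4 lay the other way. In hypoxic LNCaP NDRG4 was 1.82-fold higher with OC2 (log2 fold change 0.86, SE 0.259, limma adjusted p = 0.0669) and NDRG3 1.28-fold higher (0.35, SE 0.115, limma adjusted p = 0.0826), without overlap for either. NDRG2 was at 0.02 (95% interval -0.27 to 0.31). None of the 4 genes passed the fold limit in OC2 over EV, although 3 of 4 had a limma P under 0.05 before adjustment in hypoxia, beside 28.2% of all genes, and 0 of 4 in normoxia, beside 24.1%; the genes called by fold and P were 3.7% higher and 0.773% lower in hypoxia and 2.81% and 0.48% in normoxia.

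Across both lines no member had a common direction with more ONECUT2. With labels permuted within strata of line and oxygen, the mean log2 difference was 0.03 for NDRG1, -0.29 for NDRG2, -0.06 for NDRG3 and 0.07 for NDRG4, each with 2 of 4 strata in each direction (exact permutation p = 0.946, 0.233, 0.781 and 0.735). The ONECUT2 difference in hypoxia, PC3 minus LNCaP, was 1.40 for NDRG1 (SE 0.803, 95% interval -0.36 to 3.15, limma adjusted p = 0.411). For NDRG4 it was -1.05 (SE 0.403, limma adjusted p = 0.193), past both limits as were 7.41% of genes in that direction, but without any 1 of 5 hypoxic libraries (PC3 siCtrl replicate 2, PC3 siOC2 replicate 1, LNCaP EV replicate 2 and either LNCaP OC2 library) it no longer passed, with values from -1.32 to -0.78 over all libraries left out. For NDRG2 and NDRG3 it was -1.07 and -0.71 (limma adjusted p = 0.33 and 0.497). Silencing and overexpression are different treatments, and line and treatment cannot be told apart here.

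The hypoxia response of NDRG1 was larger in PC3 with siCtrl than in LNCaP with EV by 1.30 on the log2 scale, but the interval ran from -0.46 to 3.05 (joint limma fit of 16 libraries, SE 0.803, adjusted p = 0.595). In a fit to the 8 control libraries alone, chosen after the data were seen, the same difference had SE 0.182 and adjusted p = 0.00765. The value was also 1.30 without PC3 siOC2 normoxia replicate 1 or replicate 2, which are not part of this comparison. Leaving 1 of them out takes the spread of their pair out of the fit, so the smaller spread is not read as a pass. For NDRG2, NDRG3 and NDRG4 the differences were -0.22, -0.09 and 0.46, with limma adjusted p = 0.937, 0.976 and 0.745.

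Beside the reference hypoxia genes, targets that hypoxia-inducible factors are known to induce, NDRG1 was among the strong responders in PC3. With siCtrl in PC3, 15 of 16 were called higher in hypoxia and none lower (median log2 fold change 2.18, against -0.07 over all genes), and 3 of 16 exceeded NDRG1, among them ANGPTL4 (6.27), a lipoprotein lipase inhibitor, and the carbonic anhydrase CA9 (6.07). With siOC2 14 of 16 were called higher (median 1.77, against -0.22), and 1 of 16 exceeded NDRG1. In LNCaP, 14 of the 16 passed the filter on low values. With EV 13 of these 14 were called higher (median 2.16, against 0.02) and 1 exceeded NDRG1, PFKFB4 (3.20), an enzyme that sets fructose 2,6-bisphosphate levels. With OC2 14 of 14 were called higher (median 2.49, against 0.09) and 7 exceeded NDRG1. All reference genes tested had log2 fold changes above 0 in hypoxia in each arm of both lines, as NDRG1 did. Over all genes, 2.23% were called higher with siCtrl, 1.11% with siOC2, 5.6% with EV and 5.48% with OC2.

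For OC2 over EV in hypoxic LNCaP, 8 of these 14 genes had a log2 fold change above 0 and 6 below, and none was called. Each of the 14 had a higher log2 fold change, OC2 over EV, than NDRG1 at -0.63; their range was -0.47 to 0.69 and their median 0.13, against -0.01 over all genes. KDM3A, a histone demethylase, was higher at 0.69 (limma adjusted p = 0.00801), and the glucose transporter SLC2A1 was at -0.47. The difference between oxygen levels was likewise above that of NDRG1 (-0.53) in all 14, from -0.10 to 1.53. In hypoxic PC3 the reference genes ran from -0.85 to 2.52 for siCtrl over siOC2 (median 0.40, against 0.03), and 4 of 16 exceeded NDRG1 at 0.76. These genes were compared as values side by side and no test was made over the list.

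**Figure D4:**
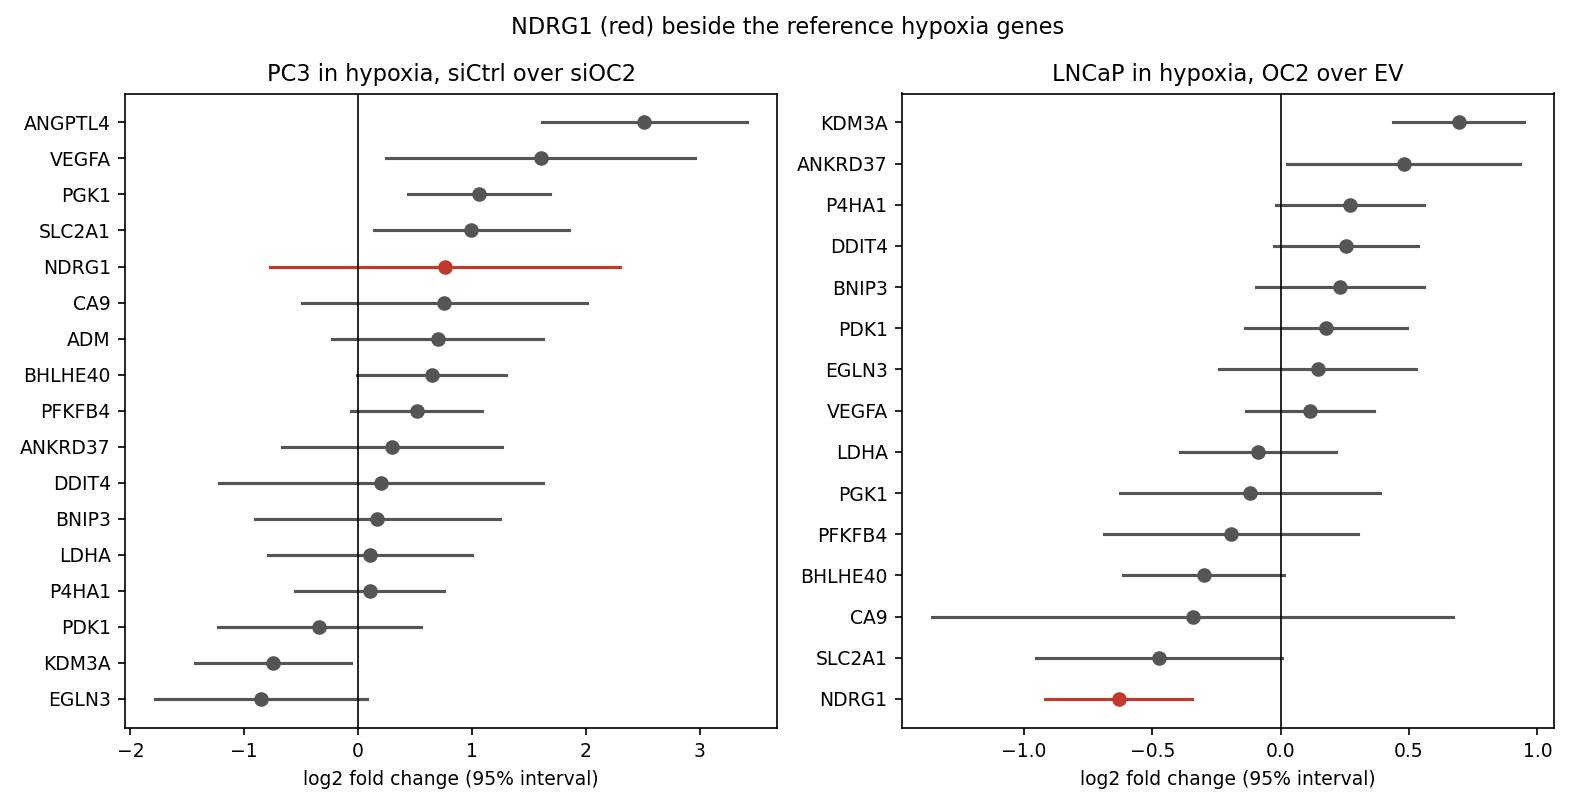
limma log2 fold changes with 95% intervals for more over less ONECUT2 in hypoxia, in PC3 (left, siCtrl over siOC2) and LNCaP (right, OC2 over EV), for the reference hypoxia genes tested (grey) and NDRG1 (red). In PC3 4 reference genes lie above NDRG1, and in LNCaP all 14 do.

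The regulators known to act on NDRG1 transcription were a list of 10, of which 8 were tested in PC3 and 9 in LNCaP. MXI1, a MYC antagonist, rose in hypoxia beside NDRG1 in each arm, with log2 fold changes of 2.14 (siCtrl, limma adjusted p = 0.0285) and 1.02 (siOC2, limma adjusted p = 0.719) in PC3 and 1.44 and 1.75 in LNCaP (EV and OC2, limma adjusted p = 0.000285 and 0.000166). EPAS1, which encodes HIF-2-alpha, was called higher with siCtrl (1.02, limma adjusted p = 0.611) and with EV (1.40, limma adjusted p = 0.00910). HIF1A, whose product is controlled mainly by protein stability, was not called in any of these 4 arms, with a log2 fold change of -0.99 with siCtrl. Of the tested regulators 2 of 8 were called higher in hypoxia with siCtrl, and 1 higher and 1 lower with siOC2. In LNCaP 2 of 9 were called higher and 1 lower with EV, and 1 of 9 higher with OC2. Of all genes, 2.23% were called higher with siCtrl, and 1.11% higher and 2.35% lower with siOC2. With EV 5.6% were called higher and 2.34% lower, and with OC2 5.48% higher. Lists this short were not tested against these shares.

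In hypoxic LNCaP with OC2, where NDRG1 was lower, MYC was lower as well. It was at 86.8 and 88.3 RPKM with EV and at 54.5 and 54.4 RPKM with OC2 (log2 fold change -0.68, SE 0.120, limma adjusted p = 0.0119), and in normoxia the difference was -0.77 (limma adjusted p = 0.0118), where NDRG1 showed none past its spread. EGR1, an immediate early transcription factor, stood at 0.696 and 0.340 RPKM with EV and at 35.6 and 25.6 RPKM with OC2 in hypoxia (5.68, limma adjusted p = 4.05e-05), and it was called in normoxia too (5.16). In PC3 MYC showed no difference with siCtrl over siOC2 past the limits, and its level in hypoxia split by siRNA, at 14.5 RPKM (siRNA1) and 64.3 RPKM (siRNA2) against 58.5 and 59.8 RPKM with siCtrl. MYCN, called lower for siCtrl over siOC2 in hypoxic PC3 (-2.71, limma adjusted p = 0.317), was at no more than 2.47 RPKM in any PC3 library.

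The androgen-responsive genes that mark LNCaP were lower with OC2 in hypoxia, as NDRG1 was. For the 4 reported here (KLK2, KLK3, TMPRSS2 and FKBP5) OC2 over EV ran from -0.62 to -0.40 on the log2 scale. Of these, 3 had a limma adjusted p under 0.05, FKBP5 (-0.62), KLK2 (-0.60) and KLK3 (-0.40), beside 4.82% of all genes lower by that rule. In normoxia OC2 over EV ran from -0.48 to 0.07. For hypoxia over normoxia the 4 genes ran from 0.06 to 1.16 with EV and from -0.01 to 0.91 with OC2, below NDRG1 in both arms. Their part in the NDRG1 difference was not tested. COL1A1, a fibroblast collagen gene that LNCaP itself held at 7.57 to 25.9 RPKM, was higher with OC2 (0.62 in hypoxia, limma adjusted p = 0.0104).

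Among the 4 kinases of the NDRG1 protein tested in PC3, SGK1 was called with ONECUT2 silencing, and SGK2 was below the filter on low values there. SGK1 was at 4.13 and 5.41 RPKM with siCtrl and at 22.3 and 13.5 RPKM with siOC2 in normoxia. In hypoxia SGK1 was at 6.48 and 7.20 RPKM with siCtrl and at 24.7 and 10.3 RPKM with siOC2. Both siRNAs lay above both controls at each oxygen level, and siCtrl over siOC2 was called lower in both. The log2 fold change was -1.85 in normoxia (limma adjusted p = 0.220) and -1.22 in hypoxia (limma adjusted p = 0.317). Of all genes, 3.62% and 3.55% were called lower there. In LNCaP with EV SGK1 rose in hypoxia from 1.78 and 1.42 to 4.02 and 3.80 RPKM (1.25, limma adjusted p = 0.00797), whereas with OC2 it was at 3.10 and 3.37 RPKM in normoxia and at 1.93 and 3.38 RPKM in hypoxia. The difference between both responses was -1.58 (limma adjusted p = 0.109). GSK3B rose less, by 0.59 with EV and 0.54 with OC2 (limma adjusted p = 0.0186 and 0.0314, both under 2-fold). SGK2 was also called higher with EV (1.49, limma adjusted p = 0.000720). In hypoxia 2 of 5 tested kinases were thus called higher with EV, 0 of 5 with OC2 and 0 of 4 in either PC3 arm. Of all genes, 5.6% were called higher with EV, 5.48% with OC2, 2.23% with siCtrl and 1.11% with siOC2.

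The genes most like each member were those with the highest Pearson correlation of log2 RPKM over the 16 libraries, centred within each line, among 10947 genes. For NDRG1 they were AK4 (r = 0.98), CCNG2 (0.98), FAM162A (0.97), GBE1 (0.97) and ALKBH5 (0.97), each at 0.95 or higher within either line. For NDRG3 VPS45 came first (0.96, with 0.97 in PC3 and 0.94 in LNCaP) and for NDRG4 CRELD2 (0.86, with 0.90 and 0.83). For NDRG2 RCAN1 came first (0.96), a likeness seen in PC3 (0.98) and not in LNCaP (-0.004). The libraries of a group share their treatment, so these values describe the pattern and were not tested.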

How the data were processed

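RNA from PC3 and LNCaP cells was sequenced by the study as 16 libraries, 8 per line; 12 chromatin samples of the series were not analysed here. According to the deposited labels and the study's methods, stranded mRNA libraries were aligned with STAR (version 2.4.2a) to hg19 and quantified with Cufflinks (version 2.1.1) as RPKM, which the authors deposited as 1 table per line. Raw counts were not used here, so depth was estimated only relative to the deepest library of each table. The members and the gene lists were chosen with earlier results of these data known.

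Each line was fitted with limma (version 3.58.1, R version 4.3.3) as 4 groups on log2(RPKM + 0.1), for the 12214 genes in PC3 and 12283 in LNCaP that reached 1 RPKM in 2 or more libraries, with an empirical Bayes trend and Benjamini-Hochberg adjusted p-values over all genes tested. Fold changes are on this scale and understate those of low genes. Genes were called where they changed more than 2-fold with P under 0.05 before adjustment. Differences between lines came from a joint fit of 13571 genes in 8 groups, in which the ONECUT2 contrasts were added after the data were seen. Single values were tested with exact permutation tests over libraries. The scripts were tested on simulated data. The named genes were the 4 members, ONECUT2, the regulators, kinases and reference hypoxia genes that were called or are named for comparison, line markers (2 of which are not reported here), and the 5 genes most correlated with a member. The labels pair same-numbered libraries only by the siRNA. The deviations of siOC2 libraries in hypoxia and normoxia correlated (0.618), while the other pairs of groups in PC3 gave -0.186 to 0.0759. In LNCaP hypoxic EV and hypoxic OC2 gave 0.275, a weaker sign of shared replicate numbers, and the other pairs -0.0648 to 0.00375. The main fits used no pairing. Alternatives tried were another pseudocount, filter and scaling, blocks for replicate number, a siRNA term, a depth covariate, and leaving out each library.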

Additional observations from a re-analysis of the deposited data

Results flagged for a closer look

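In LNCaP NDRG1 was lower with OC2 in hypoxia and overlapped in normoxia, and the interaction was -0.527 on the log2 scale (limma adjusted p = 0.207, 0.177 to 0.546 over the alternatives). For NDRG4, the ONECUT2 difference in hypoxia was of opposite sign in the lines, and PC3 minus LNCaP was -1.05 (limma adjusted p = 0.193), with both hypoxic OC2 libraries above both EV libraries in LNCaP and overlapping groups in PC3. For NDRG1 the same comparison gave 1.40 (limma adjusted p = 0.411), and it is listed because both libraries with more ONECUT2 were higher in PC3 and both were lower in LNCaP. The value of 1.40 was the same without PC3 siOC2 normoxia replicate 1 or 2, which are not part of this comparison. Leaving 1 of them out takes the spread of their pair out of the fit, so the smaller spread is not read as a pass. Fitted to all libraries, none of these passed an adjusted p of 0.05.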

How the results depend on the processing

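With 2 libraries a group and no raw counts, the precision here is set by the spread between libraries, and low levels, such as NDRG4 in LNCaP, carry a larger part of counting error. Of 1007 values under another setting, over 66 results, 915 kept their direction and their side of the limits, 26 came to pass them, 21 no longer passed and 45 changed sign. Those that no longer passed include 6 stratified values within LNCaP alone and 6 within PC3 alone, where no p can go under 0.0556. Those that stayed include fits without a library that the comparison does not use, where the value cannot move. These counts are therefore not a measure of robustness. The cause was not tested unless the setting itself, such as fewer libraries, gives it. All values below are log2 differences.

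Leaving out 1 library at a time gave the widest ranges where the siRNAs differ. For siCtrl over siOC2 in PC3 normoxia they were -1.21 to 1.38 (NDRG1), -0.54 to 0.13 (NDRG2) and -1.04 to 0.29 (NDRG3), and in PC3 hypoxia -1.77 to -0.32 (NDRG2), -0.59 to -0.12 (NDRG3) and -0.46 to 0.081 (NDRG4). For hypoxia over normoxia with siOC2 they were 2.29 to 4.87 (NDRG1), -0.080 to 1.36 (NDRG2), -1.17 to 0.16 (NDRG3) and -1.04 to -0.50 (NDRG4), and with siCtrl -0.68 to -0.29 (NDRG3) and -0.58 to -0.097 (NDRG4). The PC3 interaction ran from -0.61 to 1.97 (NDRG1), -1.56 to -0.12 (NDRG2) and -0.65 to 0.68 (NDRG3). In LNCaP, OC2 over EV in normoxia ran from -0.26 to 0.058 (NDRG1), -0.056 to 0.22 (NDRG2) and -0.17 to 0.63 (NDRG4), and in hypoxia from -0.047 to 0.092 (NDRG2). Hypoxia over normoxia ran from -0.080 to 0.13 (NDRG2) and -1.20 to -0.40 (NDRG4) with EV and from -0.17 to 0.10 (NDRG2) with OC2, and the LNCaP interaction from -0.19 to 0.078 (NDRG2) and 0.23 to 1.03 (NDRG4). Between lines, the hypoxia response ran from 1.22 to 1.37 (NDRG1) and -0.29 to 0.10 (NDRG3). The ONECUT2 difference in hypoxia ran from 1.16 to 1.64 (NDRG1), -1.79 to -0.35 (NDRG2) and -1.32 to -0.78 (NDRG4), and that in normoxia from -1.10 to 1.48 (NDRG1), -0.62 to 0.049 (NDRG2), -1.17 to 0.16 (NDRG3) and -1.25 to -0.46 (NDRG4).

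A replicate block brought 2 NDRG2 values past the limits, siCtrl over siOC2 in PC3 hypoxia (-1.04, limma adjusted p = 0.282) and the ONECUT2 difference in hypoxia between lines (-1.07, limma adjusted p = 0.245), and it changed no other call. The first also passed with crossed numbers in PC3 (limma adjusted p = 0.278) and with a term for the siRNA (limma adjusted p = 0.0219), both chosen after the data were seen. The siRNA term takes the siRNA difference as equal at both oxygen levels, which it was not for NDRG2. The hypoxia response of NDRG1 between lines passed in a fit to the control libraries alone (1.30, limma adjusted p = 0.00765), chosen after the data were seen. It also came to pass with 1 normoxic siOC2 library left out, at the same value. The comparison does not use those libraries, and leaving 1 out takes the spread of their pair out of the fit. With calls by adjusted p, NDRG1 in PC3 hypoxia (4.26 with siCtrl, 3.58 with siOC2) and the NDRG4 difference between lines (-1.05) no longer passed, while NDRG1 for OC2 over EV in hypoxia (-0.63) and NDRG3 and NDRG4 in hypoxia with EV (-0.39 and -0.80) did.

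A pseudocount of 1 RPKM put that NDRG4 difference between lines at -0.72 and turned the stratified ONECUT2 values of NDRG4 and of NDRG1 over NDRG4 (-0.0078 and 0.036). The NDRG3 interaction in PC3 became -0.089 with a depth covariate, chosen after the data were seen, and -0.15 with upper-quartile scaling, which also put NDRG2 in hypoxia with EV at -0.0095. Within LNCaP alone the stratified hypoxia values were 2.70 (NDRG1), -0.0042 (NDRG2), -0.28 (NDRG3) and -0.48 (NDRG4), and 2.71, 2.99 and 3.19 for NDRG1 over NDRG2, NDRG3 and NDRG4. Within PC3 alone they were 3.92 (NDRG1), -0.49 (NDRG3) and -0.56 (NDRG4), and 3.70, 4.42 and 4.48 for the ratios; within 1 line no p can go under 0.0556. The stratified ONECUT2 values within LNCaP were -0.37 (NDRG1), 0.052 (NDRG2), 0.25 (NDRG3), -0.42 (NDRG1 over NDRG2) and -0.61 (NDRG1 over NDRG3), and within PC3 -0.41 (NDRG4) and 0.83 (NDRG1 over NDRG4), each opposite in sign to the value over both lines.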
